A study of Mus musculus with 17 samples.

Results

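The unfolded protein response and the heat shock response were followed through 35 genes in lavage cells of urethane-treated and untreated mice: 23 genes of the endoplasmic reticulum (ER), 10 of the cytosolic heat shock response and the 2 mitochondrial chaperonins Hspd1 and Hspe1. The genes were taken as a named list, and every probe set of the Affymetrix Mouse430_2 array annotated to exactly 1 of them was used. The array held 83 such probe sets, of which 78 passed the filter on low signals. They represented 33 of the 35 genes (23 ER, 8 cytosolic and 2 mitochondrial) among 13390 genes tested, and all 33 passed that filter. Trib3, Hspa1a and Hspa1b exceeded the 40th percentile signal on 16 of 17 arrays and the others on all 17. Hsf1, the master factor of the heat shock response, and Hsp90ab1 are not analysed here.

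The cells were washed by bronchoalveolar lavage from the airways and air spaces of mice of the inbred strain A/J, which readily develops lung tumours. Untreated age-matched control mice gave 6 arrays, and mice given urethane, the chemical carcinogen used to raise such tumours, gave 11. Age, dose and time after urethane are not given in the sources used here. Arrays go by their title numbers here, and control 6_13 carries 2 numbers. Numbers under 20 belong to 2 control (6_13, 14) and 5 urethane arrays (3, 5, 7, 8, 9), called low-numbered below, and numbers of 31 and over to 4 control (33, 35, 36, 37) and 6 urethane arrays (31 to 36), called high-numbered. The same split separates the chip lots and the scan days, so these cannot be told apart. Whether each number is a separate mouse is not stated, and p-values therefore measure the spread between these samples, which may be partly technical.

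One line of the labels speaks of lung tissue where the titles and source names give lavage cells. Of 12 alveolar macrophage markers listed, the 11 with a probe set, among them Marco, Mrc1, Itgax and Pparg, passed the filter, and their summed signal ran from 139090 to 206871 over the 17 arrays. Every array had a trimmed mean signal of 500, while the signal at the 20th percentile varied between 9.49 and 66.2. Among low-numbered arrays it was 15.7 and 27.9 in the controls and 9.49 to 13.4 after urethane. In bulk RNA, fewer cells of a type and less RNA per cell cannot be told apart.

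Secretory and membrane proteins fold in the ER, where Hspa5 (BiP), its DnaJ partners, the lectin chaperones and the disulfide isomerases act. When unfolded protein builds up there, the sensors IRE1 (Ern1), ATF6 and PERK signal to the nucleus: IRE1 splices Xbp1, ATF6 is cut to release a transcription factor, and PERK slows translation while favouring that of ATF4. XBP1 and ATF6 act on chaperone and degradation genes through ER stress response elements, ATF4 acts on genes of amino acid supply and on Ddit3 and Trib3, and in the cytosol heat shock factor 1 acts on Hsp70, Hsp40 and Hsp90 genes through heat shock elements. Alveolar macrophages, the main cell of lavage fluid, take up inhaled particles and surfactant and secrete proteins made in the ER.

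Promoter sequences, credited to RefSeq on assembly GRCm38.p6, were found for 28 of the genes. The ER stress response element (ERSE) was searched as CCAAT and CCACG with any 9 bases between them, its second form ERSE-II as ATTGG and CCACG with any single base between, and the heat shock element as GAA, TTC and GAA with any pair of bases between neighbours, on both strands of windows from 250 bases before to 50 after each annotated start; ERSE matches contain the shorter motif CCAAT. The 250 bases upstream of the start are shown for 3 ER genes that rose after urethane on the low-numbered arrays, with the ERSE match in capitals (in Creld2 it runs on the opposite strand), and for the mitochondrial chaperonin Hspe1 as the contrast, with its overlapping heat shock element matches in capitals. All 4 lie on the plus strand, Hspa5 at chr2:34771840-34772089, Dnajc3 at chr14:118937682-118937931, Creld2 at chr15:88819396-88819645 and Hspe1 at chr1:55087898-55088147. Hspe1 and Hspd1 are neighbours whose windows share the same matches.
Hspa5: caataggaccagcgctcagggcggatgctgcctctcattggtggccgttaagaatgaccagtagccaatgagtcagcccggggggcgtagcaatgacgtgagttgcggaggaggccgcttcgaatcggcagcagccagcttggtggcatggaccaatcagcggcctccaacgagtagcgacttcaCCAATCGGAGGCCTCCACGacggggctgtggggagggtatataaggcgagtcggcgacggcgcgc
Dnajc3: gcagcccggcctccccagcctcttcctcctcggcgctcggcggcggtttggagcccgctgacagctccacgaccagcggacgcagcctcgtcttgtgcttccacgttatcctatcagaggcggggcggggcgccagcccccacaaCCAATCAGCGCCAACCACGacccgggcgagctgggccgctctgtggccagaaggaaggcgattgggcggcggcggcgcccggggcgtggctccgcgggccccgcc
Creld2: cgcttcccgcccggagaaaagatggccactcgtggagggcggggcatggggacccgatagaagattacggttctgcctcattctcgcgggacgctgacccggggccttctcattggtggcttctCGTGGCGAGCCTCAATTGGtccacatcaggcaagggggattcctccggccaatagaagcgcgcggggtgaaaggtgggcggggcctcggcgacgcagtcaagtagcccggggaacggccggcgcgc
Hspe1: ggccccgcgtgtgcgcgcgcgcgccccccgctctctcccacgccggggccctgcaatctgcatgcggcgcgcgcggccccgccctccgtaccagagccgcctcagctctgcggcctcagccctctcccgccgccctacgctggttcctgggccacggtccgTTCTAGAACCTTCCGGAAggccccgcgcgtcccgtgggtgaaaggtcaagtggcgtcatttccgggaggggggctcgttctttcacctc

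An ERSE was found in 7 of 20 ER genes with a window (Hspa5, Hsp90b1, Dnajc3, Calr, Canx, Creld2 and Pdia6), against 37 of all 27025 genes with a window, or 0.137%. ERSE-II was found in Herpud1 and Dnajb11, against 12 of all genes (0.0444%). Neither was found in the 6 cytosolic and 2 mitochondrial genes with a window. The ER genes were listed for their part in the unfolded protein response, so their higher share is not a separate finding. The heat shock element was found in 1 of the 6 cytosolic genes with a window, Hsph1, and in the 2 mitochondrial genes. Hspa1a, Hspa1b, Dnaja1 and Dnajb1 had windows without a match, as had all 20 ER genes. Among all genes 179 (0.662%) had one, so its absence from 20 genes tells little. The matches read on the motif's own strand are set out below, with the fixed letters in capitals, because the 9 bases between the fixed ends of the ERSE differed from gene to gene. The Dnajb11 and Hsph1 matches lie downstream of the start and the others upstream.
Hspa5 ERSE: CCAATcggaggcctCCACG
Dnajc3 ERSE: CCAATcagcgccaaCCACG
Creld2 ERSE: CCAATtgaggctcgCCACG
Pdia6 ERSE: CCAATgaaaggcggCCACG
Canx ERSE: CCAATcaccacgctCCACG
Calr ERSE: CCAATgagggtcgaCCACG
Hsp90b1 ERSE, farther from the start: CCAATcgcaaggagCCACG
Hsp90b1 ERSE, nearer to the start: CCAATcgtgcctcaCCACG
Herpud1 ERSE-II: ATTGGgCCACG
Dnajb11 ERSE-II: ATTGGcCCACG
Hsph1 heat shock element: GAActTTCcaGAA

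The first question was whether either response differed between urethane and control over all 17 arrays. In limma over all arrays none of the 33 genes reached an adjusted p under 0.05, where 3.14% of all genes did, and 9 of the 33 had an unadjusted p under 0.05, as did 14.7% of all genes. The other settings tried gave 0 to 8 genes. The 8 came with a block for each title number, which draws only on the 3 high-numbered numbers found in both groups. With the number range as a block 3 passed, against 7.75% of all genes (4.31% higher and 3.44% lower): the ER-resident Sdf2l1 (0.48) and the disulfide isomerase Pdia4 (0.54) were higher after urethane and Atf4 (-0.31) was lower, in log2 differences. Leaving out an array in turn lost these calls in 11 (Sdf2l1), 9 (Pdia4) and 7 (Atf4) of 17 fits. A difference is urethane minus control, on the scale log2(signal + 17.1), which understates the change of dim genes. The signs differed by role, though none of these differences passed over all arrays: all 11 ER chaperones and all 3 disulfide isomerases had a pooled difference above 0, all 6 sensors and factors (Xbp1, Atf4, Atf6, Ern1, Ddit3 and Trib3) one below 0, and 7 of the 8 cytosolic genes one below 0, where 45.6% of all genes were above 0. These signs were read from 1 probe set for each gene, and the probe sets of Pdia6, Atf6, Dnaja1 and Hsp90aa1 differed in sign. On the high-numbered arrays alone 6 of the 11 chaperones and 1 of the 3 isomerases were above 0. The median difference was 0.24 for the chaperones, -0.14 for the sensors and factors and -0.20 for the cytosolic genes, beside -0.03 for all genes.

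**Figure D1:**
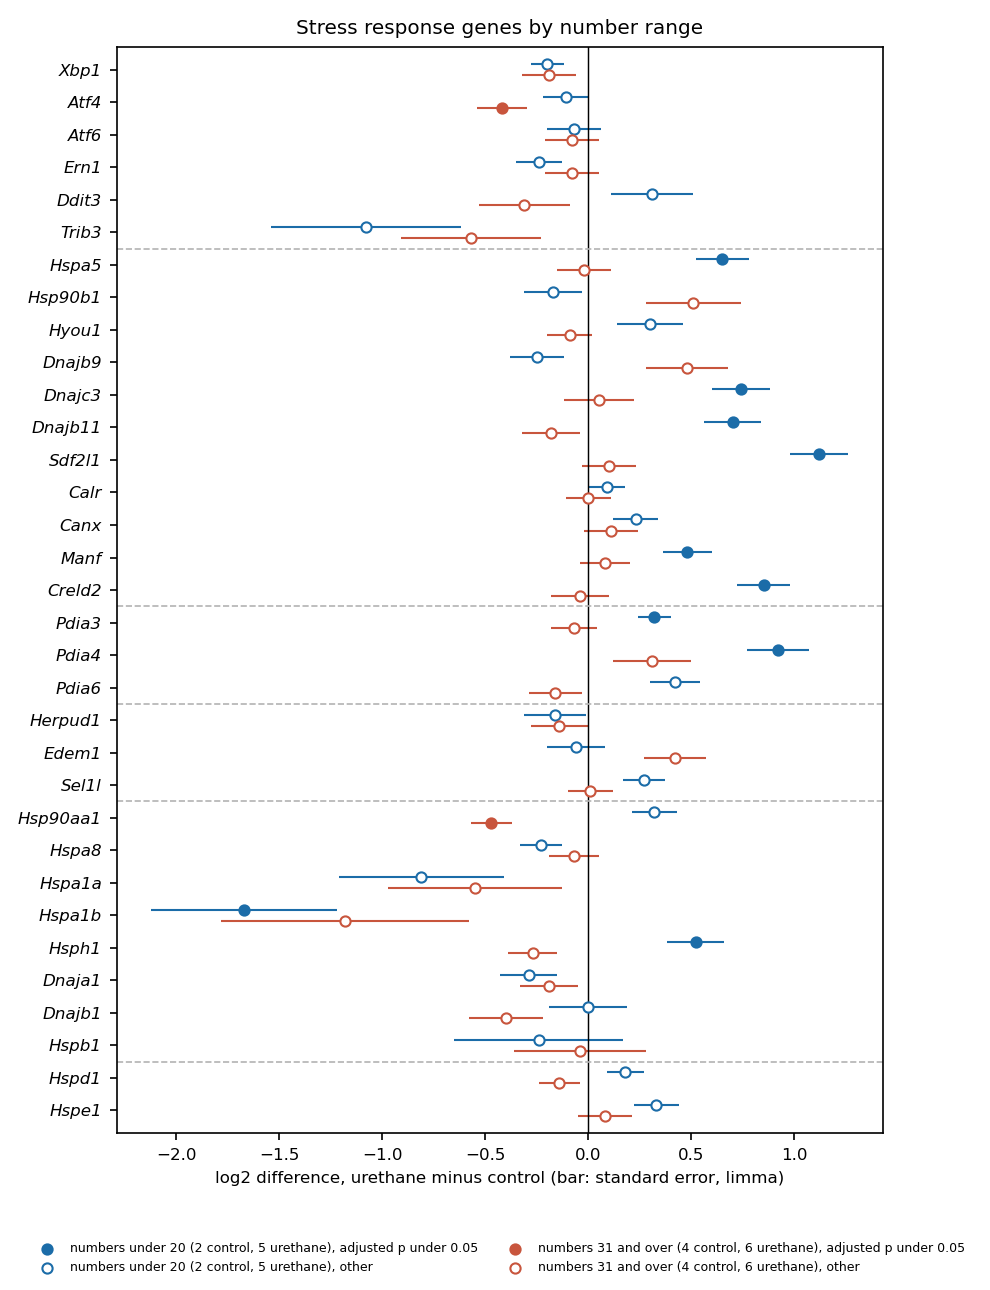
Log2 difference between urethane and control (x axis) for each of the 33 genes (y axis) on the low-numbered (blue) and high-numbered arrays (red), with the standard error from limma. Filled points passed an adjusted p of 0.05; dashed lines separate sensors and factors, ER chaperones, disulfide isomerases, ER degradation, cytosolic heat shock and mitochondrial genes, and the blue filled points lie mostly among the ER folding genes.

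The 2 ranges gave different pictures. On the low-numbered arrays 10 of the 33 genes passed the threshold (7.27% of all genes did), 9 higher and 1 lower (4.92% and 2.35% of all genes), and 8 of the 9 were ER folding genes: Hspa5, Dnajc3, Dnajb11, Sdf2l1, Manf, Creld2, Pdia3 and Pdia4. Among the high-numbered arrays 2 passed (4.75% of all genes did, 2.36% higher and 2.39% lower), Atf4 and Hsp90aa1, both lower, and none of those 8 ER genes did, with differences from -0.18 to 0.31. The median over the 23 ER genes was 0.27 on the low-numbered and -0.04 on the high-numbered arrays, beside -0.04 and 0.02 for all genes. The sign was the same in both ranges for 4 of 11 ER chaperones, 6 of 8 cytosolic genes and 6534 of all 13390 genes. The difference between the ranges was itself tested as an interaction, and 1 gene passed, Hsp90aa1 (0.0822% of all genes did). Sdf2l1 came next at -1.02 (SE 0.21, limma adjusted p = 0.0657), and the other 7 ER genes ranged from -0.89 to -0.39 without passing. The calls rest on limma's modelling of the variance: without its trend on signal none of the 33 passed on the low-numbered arrays (60 of all genes did), none on the high-numbered arrays, and Hsp90aa1 no longer passed the interaction. Centring each array on its median moved the median of all genes on the low-numbered arrays from -0.04 to 0.19 and that of the ER genes from 0.27 to 0.49, and 16 of the 33 then passed there, as did 19.0% of all genes.

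Sdf2l1, a cofactor of Hspa5 complexes in the ER, had the largest rise. Its log2 signal was 11.08 and 10.74 in the low-numbered controls and 12.03, 11.95, 11.92, 12.40 and 11.88 on urethane arrays 3, 5, 7, 8 and 9. The groups did not overlap, and the difference was 1.12 (SE 0.14, limma adjusted p = 5.5e-04), a 2.18-fold rise. In the high-numbered controls 33, 35, 36 and 37 it was 11.76, 11.63, 11.75 and 11.43, and after urethane it ran from 11.45 over a median of 11.70 to 12.06. Those groups overlapped, and the high-numbered controls all lay above both low-numbered ones.

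Creld2, an ER-resident protein with disulfide isomerase activity, stood at 10.18 and 10.19 in the low-numbered controls and at 11.08, 11.06, 11.20, 11.10 and 10.74 after urethane, again without overlap. It rose by 0.85 (SE 0.13, limma adjusted p = 0.0018). In the high-numbered controls it read 10.57, 10.39, 10.66 and 10.59, and after urethane 10.11 to 10.91 with a median of 10.54, so the groups overlapped. Sdf2l1 and Creld2 were the 2 of these 10 genes that passed in limma whichever of the 7 low-numbered arrays was left out, with a highest adjusted p of 0.0260 and 0.0347 in those fits.

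Hspa5, the Hsp70 of the ER lumen and the classical readout of the response, was at 14.01 and 14.07 in the low-numbered controls. The 5 urethane arrays there read 14.83, 14.98, 14.57, 14.64 and 14.39, all above both controls. The rise was 0.65 (SE 0.13, limma adjusted p = 0.0094), and the call was lost without either control (highest limma adjusted p 0.0840). The high-numbered controls read 14.57, 14.21, 14.47 and 14.19 and the urethane arrays 14.10 to 14.62 with a median of 14.30, so the groups overlapped. Its 3 probe sets disagreed: on the low-numbered arrays a pair of them gave 0.65 and 0.50, each past the threshold in the fit over probe sets, while the third gave -0.45 and did not pass.

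Of the DnaJ partners of Hspa5, Dnajc3 and Dnajb11 rose on the low-numbered arrays and Dnajb9 did not (-0.25, SE 0.13, limma adjusted p = 0.247). Dnajc3 (P58IPK), which carries an ERSE, was at 11.20 and 11.43 in the controls and at 12.27, 12.16, 12.05, 12.13 and 11.66 after urethane, a rise of 0.74 (SE 0.14, limma adjusted p = 0.0079). All 5 urethane arrays were above both controls, and all 5 of its probe sets gave a positive difference, from 0.05 to 0.74, with 2 past the threshold. Dnajb11 (ERdj3), which carries an ERSE-II, was at 10.94 and 11.14 in the controls and at 11.94, 11.81, 11.79, 11.83 and 11.32 after urethane, a rise of 0.70 (SE 0.14, limma adjusted p = 0.0120). The call of Dnajc3 was lost without control 6_13 (limma adjusted p = 0.0626), and that of Dnajb11 without either control (highest limma adjusted p 0.0745). On the high-numbered arrays the differences were 0.05 and -0.18.

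Manf, a secreted ER stress protein, was at 12.34 and 12.24 in the low-numbered controls and at 12.73, 12.93, 12.68, 12.98 and 12.52 after urethane. It rose by 0.48 (SE 0.12, limma adjusted p = 0.0280), and the call held in 3 of the 7 fits that left out an array. Pdia3 (ERp57), the isomerase that works with the lectin chaperones on glycoproteins, was at 13.87 and 13.85 in controls and at 14.27, 14.20, 14.17, 14.16 and 14.09 after urethane, a small rise of 0.32 (SE 0.08, limma adjusted p = 0.0311) that held in 2 of the 7. Pdia4 (ERp72) was at 10.55 and 10.27 in controls and at 11.44, 10.96, 11.50, 11.47 and 11.28 after urethane, a rise of 0.92 (SE 0.15, limma adjusted p = 0.0024) that was lost only without control 14. Each of these groups stood apart on the low-numbered arrays. Pdia4 was the one whose high-numbered difference, 0.31 (SE 0.19), also pointed upward by more than its standard error; there the controls read 11.34, 11.25, 11.66 and 10.85 and the urethane arrays 11.10 to 12.02 with a median of 11.68, so they overlapped.

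Groups that do not overlap are common when 2 arrays face 5: 15.2% of all genes had all 5 low-numbered urethane arrays above both controls and 14.5% had all 5 below. Among the 33 genes 11 were above (the 8 ER genes, the degradation factor Sel1l, Hsph1 and Hspd1) and 3 below (Xbp1, Ern1 and Trib3). On the high-numbered arrays 3.36% of all genes lay below all controls without overlap and 2.33% above, and Hsp90aa1 was the 1 gene of the 33 to do either. Over all arrays 0.269% of all genes lay above and 0.202% below without overlap, and none of the 33 did.

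**Figure D2:**
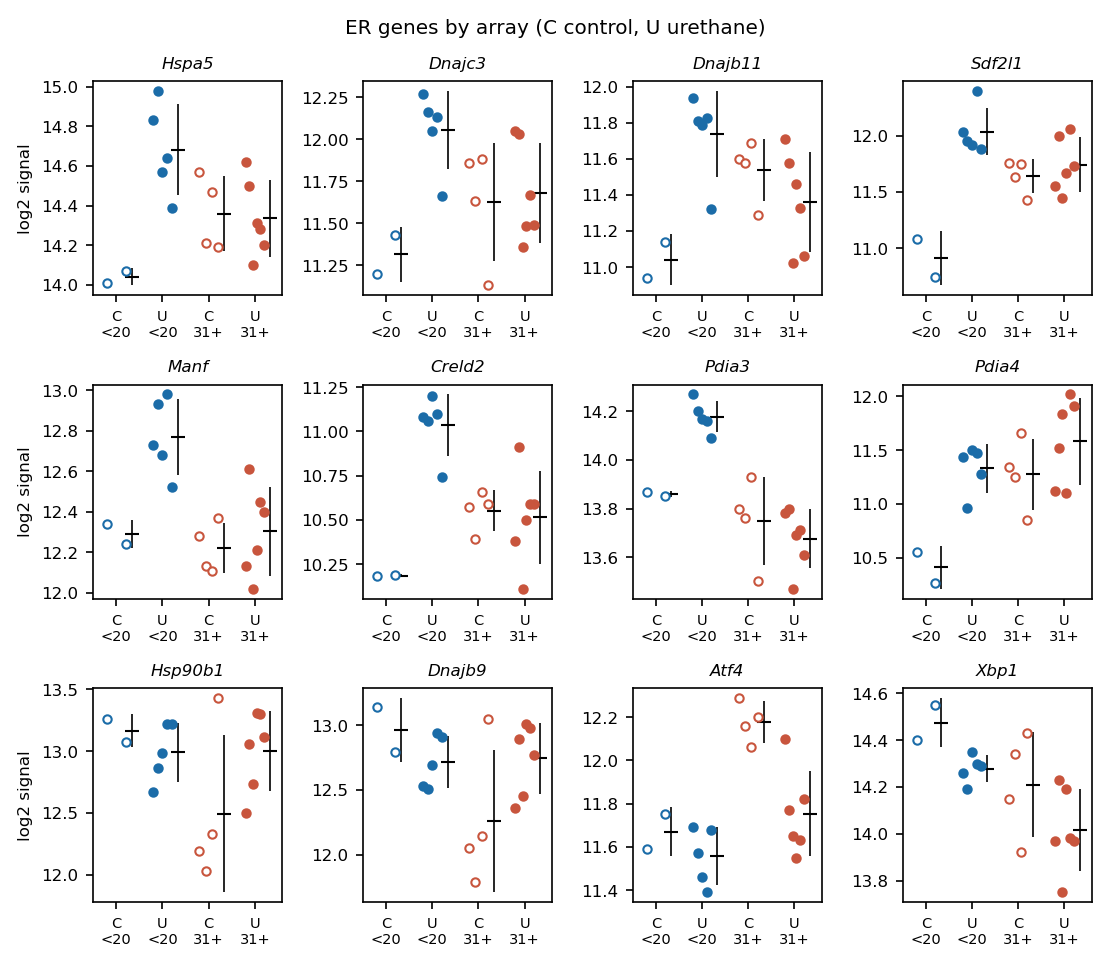
Log2 signal (y axis) of 12 ER genes on every array, for control (C, open) and urethane (U, filled) arrays of the low-numbered (blue) and high-numbered (red) ranges, with mean and SD at the side. The low-numbered controls lie below the low-numbered urethane arrays in the panels for Hspa5, Sdf2l1, Creld2 and Pdia4, and Hsp90b1 and Dnajb9 show a pattern of their own in the high-numbered controls.

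Not all ER chaperones followed. Hsp90b1 (GRP94), the Hsp90 of the ER, and Dnajb9 (ERdj4) are described although the rule for single values did not name them, because their controls were seen to split. Hsp90b1 read 12.19, 12.03 and 12.33 in controls 33, 35 and 36 and 13.43 in control 37, while the urethane arrays of that range ran from 12.50 to 13.31. Dnajb9 read 12.05, 11.79 and 12.14 in the same 3 controls and 13.05 in control 37, with 12.36 to 13.01 after urethane. In both genes controls 33, 35 and 36 were thus below every other array, while control 37 was the highest array for Hsp90b1 and the second highest, after control 6_13, for Dnajb9. The second probe set of Hsp90b1 did not show it: it read 13.01, 12.83 and 12.81 in controls 33, 35 and 36 and 12.34 in control 37. The monocyte and interstitial macrophage markers split with these controls as well, with a summed signal of 10533 in control 37 and up to 40924 in control 33. Their part in the values was not tested. The lectin chaperones did not pass, and their probe sets varied: those of Calr gave 0.09, 0.33 and 0.34 on the low-numbered arrays and -0.05 to -0.00 on the high-numbered ones, and those of Canx gave 0.23, 0.36 and -0.08 and then 0.11, -0.18 and 0.46. The lowest adjusted p among them in limma over probe sets was 0.0530, for Canx at 0.36. Hyou1 differed by 0.30 and -0.09 in the 2 ranges, neither past the threshold.

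The sensors and factors leaned the other way over all arrays. Atf4, the factor downstream of PERK, was at 12.29, 12.16, 12.06 and 12.20 in the high-numbered controls and at 12.10, 11.77, 11.65, 11.55, 11.63 and 11.82 on urethane arrays 31 to 36. All urethane arrays but 31 lay below every control, and the difference of -0.42 (SE 0.12) had a limma adjusted p of 0.0458, and the call held in 2 of 10 fits leaving out an array. On the low-numbered arrays, where the controls were at 11.59 and 11.75, it was -0.11 (SE 0.11, limma adjusted p = 0.543). The second probe set of Atf4 gave 0.07 on the high-numbered arrays and -0.76 on the low-numbered ones, the second of which passed in the fit over probe sets (limma adjusted p = 0.0242).

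Xbp1 read 14.40 and 14.55 in the low-numbered controls and 14.26, 14.19, 14.35, 14.30 and 14.29 after urethane, below both controls on all 5 arrays, with a difference of -0.20 (SE 0.08, limma adjusted p = 0.139). Its high-numbered difference was -0.19 (SE 0.13, limma adjusted p = 0.474). All 4 of its probe sets gave a negative low-numbered difference, and 1 of them, at -0.32, passed in the fit over probe sets (limma adjusted p = 0.0451). The signals do not separate spliced from unspliced Xbp1. Ddit3 (CHOP), the factor of late ER stress, ran from 8.40 to 9.67 with a median of 9.17 in the 6 controls and from 8.31 to 9.37 with a median of 9.16 after urethane, and the groups overlapped. Its difference was 0.31 (SE 0.20, limma adjusted p = 0.329) on the low-numbered arrays, the 1 sensor or factor above 0 there. On the high-numbered arrays it was -0.31 (SE 0.22, limma adjusted p = 0.494). The 2 probe sets of Ddit3 had the same sign as each other in each range. Trib3, an ATF4 and CHOP target, was at 7.21 and 7.24 in the low-numbered controls and at 6.79, 6.03, 6.58, 5.06 and 6.28 after urethane. Its pooled difference of -0.86 (SE 0.33, limma adjusted p = 0.198) was the largest in size of the 23 ER genes and did not pass.

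The genes that PERK and ATF4 act on were read from a separate list, of which 25 genes were tested. Over all arrays 7 passed in limma, 5 lower and 2 higher, against 1.14% lower and 2.00% higher among all genes, and the list median was -0.22. On the low-numbered arrays 1 passed as lower (Asns) and 2 as higher (Ddit4 and Atf3), against 2.35% and 4.92% of all genes. On the high-numbered arrays 5 passed as lower (Asns, Mthfd2, Atf5, Slc3a2 and Slc7a5) and 0 as higher, against 2.39% and 2.36%. Asns, asparagine synthetase and a standard ATF4 target, ran from 9.14 over a median of 9.87 to 9.99 in the 6 controls and from 7.82 over 8.43 to 8.64 after urethane. All 11 urethane arrays lay below all 6 controls, the difference was -1.45 (SE 0.15, limma adjusted p = 2.3e-05), and it was -1.51 on the low-numbered and -1.44 on the high-numbered arrays. Both probe sets of Asns passed in all arrays, at -1.45 and -1.39.

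Mthfd2, a mitochondrial enzyme of one-carbon metabolism, ran from 9.42 to 10.65 (median 9.76) in controls and from 8.35 to 9.41 (median 8.96) after urethane, again with no overlap, and fell by 0.87 (SE 0.18, limma adjusted p = 0.0066). On the high-numbered arrays the difference was -1.12 (SE 0.22, limma adjusted p = 0.0082), and on the low-numbered arrays -0.45 (SE 0.20, limma adjusted p = 0.166), which did not pass. One of its 2 probe sets passed over all arrays, and they gave -0.87 and -0.57. Cebpg, the bZIP partner of ATF4, fell by 0.30 (SE 0.07, limma adjusted p = 0.0290) without overlap, from a control range of 11.60 to 11.75 to 11.11 to 11.53. Its 3 probe sets gave -0.30 to -0.16, and 0 of them passed in the fit over probe sets. The call of Cebpg was lost in 5 of 17 fits that left out an array. Slc7a5, a subunit of the large neutral amino acid transporter, and Atf5 were the other 2 genes lower over all arrays, at -0.78 and -0.85. Neither passed on the low-numbered arrays. Atf3, a stress-induced repressor, rose by 0.59 (SE 0.14, limma adjusted p = 0.0228), from 9.27 to 10.20 (median 9.52) in controls to 9.71 to 10.45 (median 10.26), with 6 of 11 urethane arrays above all controls. Ddit4, an inhibitor of mTORC1, was the other riser, at 1.11. The serine synthesis genes Psat1 and Phgdh had differences of -0.49 and -0.24 and the PERK gene itself, Eif2ak3, 0.13, none past the threshold. The second probe set of Eif2ak3 gave -0.75 over all arrays and did not pass either.

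The count of 7 depends on single arrays. It was 2 without control 33 or without control 35, when Asns and Mthfd2 remained, 3 without control 6_13 and 4 without control 37, urethane 5 or urethane 32. Asns passed in all of the other settings tried, those that left out 1 array included.

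**Figure D3:**
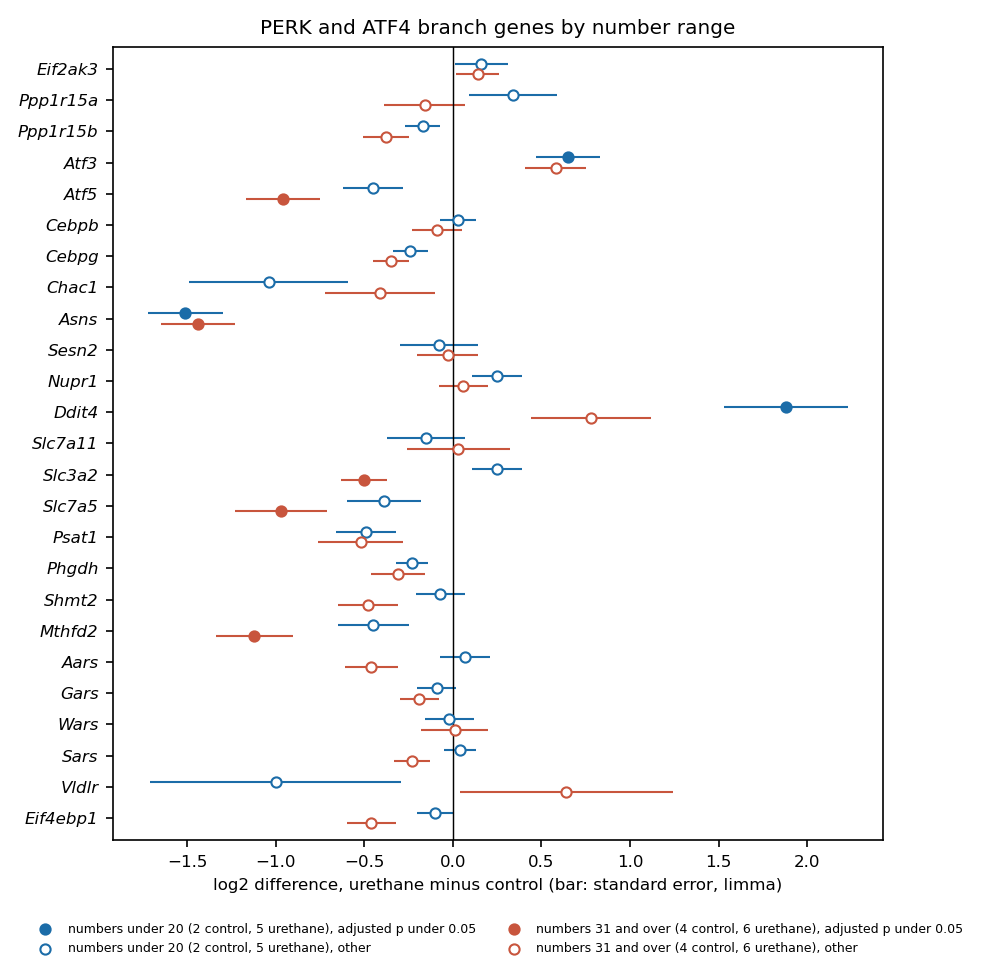
Log2 difference between urethane and control (x axis) for the 25 tested genes of the PERK and ATF4 branch (y axis) on the low-numbered (blue) and high-numbered (red) arrays, with the standard error from limma. Filled points passed an adjusted p of 0.05; Asns is filled in both ranges at -1.51 and -1.44, and the median of the 25 genes was -0.09 on the low-numbered and -0.31 on the high-numbered arrays.

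The other ER machinery was read in the same way. Of 23 genes of ER translocation and glycosylation 1 rose over all arrays, Spcs2, a signal peptidase subunit, from 12.10 to 12.34 in controls to 12.36 to 12.78 after urethane, by 0.37 (SE 0.08, limma adjusted p = 0.0086) and with all 11 urethane arrays above all controls. Among low-numbered arrays 7 of the 23 rose (Ssr4, Sec11a, Ddost, Rpn1, Srprb, Spcs3 and Spcs2, by 0.38 to 0.54), against 4.92% of all genes, and on the high-numbered arrays none passed, Spcs2 having a difference of 0.38 (SE 0.11, limma adjusted p = 0.0514) there. Of 21 ER-to-Golgi genes 2 rose over all arrays. Mcfd2, a cargo receptor subunit, rose by 0.42 (SE 0.09, limma adjusted p = 0.0064), and Sec23b, a COPII coat protein, by 0.31 (SE 0.08, limma adjusted p = 0.0334) with no overlap between the groups. The call of Sec23b was lost in 9 of 17 fits that left out an array, and it did not pass in the fit over probe sets. Of 18 ER folding genes outside the 35, Cnpy2 rose by 0.36 (SE 0.09, limma adjusted p = 0.0248). On the low-numbered arrays 1 of these 18 rose, Txndc11 by 1.80, and 3 of the 21 ER-to-Golgi genes did, against 4.92% of all genes. Of 18 further ER degradation genes none passed in limma over all arrays (4 had an unadjusted p under 0.05), and Derl2 and Syvn1, both of the retrotranslocation machinery, were higher by 0.35 and 0.33 with the number range as a block (limma adjusted p = 0.0320 and 0.0427). The second probe set of Derl2 gave -0.00, and neither probe set of Syvn1 passed in the fit over probe sets. Leaving out an array in turn lost the calls of Derl2 and Syvn1 in 9 and 12 of 17 fits. On the low-numbered arrays 3 of the 18 degradation genes rose, Derl2, Edem2 and Aup1. None of 11 genes of ATF6 and OASIS processing passed in limma in any of the 5 fits, and 0 had an unadjusted p under 0.05 over all arrays. The degradation genes Herpud1, Edem1 and Sel1l among the 35 had pooled differences of -0.13, 0.22 and 0.11, and none passed.

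Cytosolic heat shock genes had mostly negative differences. The inducible Hsp70 genes had the widest spread of the 33. Hspa1b ran from 7.08 over a median of 8.90 to 9.80 in the 6 controls and from 5.03 over 7.77 to 8.46 after urethane, overlapping. Controls 6_13, 33 and 37 read 9.80, 9.39 and 9.66 and lay above every urethane array, whereas controls 35 and 36 read 7.08 and 7.62. Its pooled difference was -1.32 (SE 0.45, limma adjusted p = 0.127). Its low-numbered values were 9.80 and 8.41 in controls and 8.46, 6.54, 7.49, 7.77 and 6.91 after urethane, and there it fell by 1.67 (SE 0.45, limma adjusted p = 0.0413), a call that held in 2 of 7 fits leaving out an array.

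The 3 probe sets of Hspa1b gave -1.32 to -1.12 over all arrays, and 1 of them, at -1.25, passed in the fit over probe sets (limma adjusted p = 0.0237), where 1.58% of all probe sets did. All 3 passed on the low-numbered arrays, with differences from -1.90 to -1.67, where 5.03% of all probe sets did. Hspa1a, read by 1 probe set, ran from 6.71 to 8.88 (median 7.58) in controls and from 6.37 to 7.93 (median 6.80) after urethane. Its pooled difference was -0.69 (SE 0.31, limma adjusted p = 0.301). Control 37 was its highest array and control 6_13 the second highest. Hspa1a and Hspa1b are near-identical neighbours, so their probe sets may read both. The residual SD within group and range was 1.07 for Hspa1b, 0.20 at the median of the 33 genes and 0.31 at that of all genes.

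**Figure D4:**
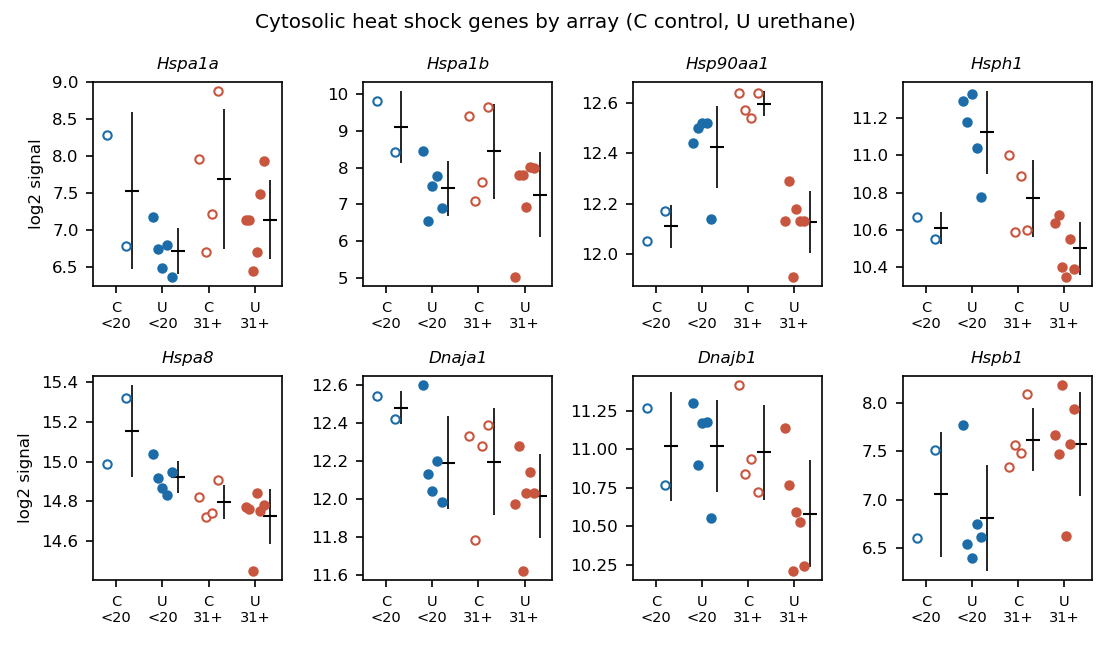
Log2 signal (y axis) of the 8 cytosolic heat shock genes on every array, for control (C, open) and urethane (U, filled) arrays of the low-numbered (blue) and high-numbered (red) ranges, with mean and SD at the side. Hspa1a and Hspa1b vary most between controls, and Hsp90aa1 separates the high-numbered groups.

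Hsp90aa1, the inducible cytosolic Hsp90, was at 12.64, 12.57, 12.54 and 12.64 in the high-numbered controls and at 12.13, 12.29, 11.91, 12.18, 12.13 and 12.13 after urethane. All 6 urethane arrays lay below all 4 controls, and it fell by 0.47 (SE 0.10, limma adjusted p = 0.0118). On the low-numbered arrays it ran the other way, at 12.05 and 12.17 in controls and at 12.44, 12.50, 12.52, 12.52 and 12.14 after urethane, a difference of 0.32 (SE 0.11, limma adjusted p = 0.0937). The interaction was -0.78 (SE 0.15, limma adjusted p = 0.0480). The call was lost in 13 of 17 fits that left out an array, and in the fit over probe sets its adjusted p in limma was 0.0622. These values come from 1 of 4 kept probe sets, the one of highest mean. The others gave high-numbered differences of -0.29, 0.11 and 1.08 and low-numbered ones of -0.62, -0.35 and -0.83, and the one at -0.62 passed there (limma adjusted p = 0.0203), opposite in sign to the first.

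Hsph1 (Hsp110), the nucleotide exchange factor of Hsp70, rose on the low-numbered arrays with the ER genes, from 10.67 and 10.55 in controls to 11.29, 11.18, 11.33, 11.04 and 10.78. The rise of 0.52 (SE 0.14) had a limma adjusted p of 0.0425, the call held in 1 of 7 fits leaving out an array, and the high-numbered difference was -0.27 (SE 0.12). Dnajb1, the Hsp40 partner of inducible Hsp70, was at 10.72 to 11.42 (median 10.89) in controls and at 10.21 to 11.30 (median 10.77) after urethane. Its differences were -0.00 on the low-numbered and -0.40 on the high-numbered arrays, neither past the threshold. Hspa8, the constitutive Hsc70, Dnaja1 and the small heat shock gene Hspb1 had pooled differences of -0.10, -0.20 and -0.20. The other 2 probe sets of Dnaja1 gave 0.22 and 0.06 over all arrays. All 4 probe sets of Hspa8 gave a negative low-numbered difference, and 1 of them, at -0.63, passed in the fit over probe sets (limma adjusted p = 0.0368). Outside the 35, none of 19 cochaperone genes of heat shock factor and Hsp90, of 21 other Hsp70, Hsp40 and small heat shock genes or of 13 chaperonin and prefoldin genes passed in limma over all arrays, and 1, 2 and 1 of them had an unadjusted p under 0.05. On the low-numbered arrays 2 of the 19 (Bag1 and Stub1), 1 of the 21 (Dnajc2) and 0 of the 13 passed, all higher. Among all genes 4.92% passed there as higher and 2.35% as lower. With the number range as a block Dnajb4 rose by 1.05 (SE 0.25), Hspa12a fell by 0.55 (SE 0.13) and the chaperonin subunit Cct2 fell by 0.46 (SE 0.11), at limma adjusted p of 0.0096, 0.0079 and 0.0104. The 3 probe sets of Dnajb4 disagreed in that fit, from -0.28 to 1.05.

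The mitochondrial chaperonins Hspd1 and Hspe1, which share a promoter region with the heat shock elements shown above, had pooled differences of -0.01 and 0.17, and none of 12 other genes of mitochondrial protein folding passed in limma over all arrays (1 had an unadjusted p under 0.05). On the low-numbered arrays 1 of those 12 passed as higher, Grpel1 by 0.45, as did 4.92% of all genes. Of 18 immediate early genes, which respond to handling as well as to signals, Jun rose by 0.66 (SE 0.16, limma adjusted p = 0.0268) and Egr1 fell by 0.73 (SE 0.18, limma adjusted p = 0.0306). Over all arrays 2.00% of all genes passed as higher and 1.14% as lower. Neither gene passed on the low-numbered arrays (0.32 and -0.38), and each did on the high-numbered arrays (0.93 and -0.83). Leaving out an array in turn lost the calls of Jun and Egr1 over all arrays in 4 and 6 of 17 fits.

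The 2 arms were compared through the mean of each class on each array, every gene being centred on its mean over arrays first. For the ER mean minus the cytosolic heat shock mean, the controls gave -0.28 ± 0.25 (SD, n = 6) and the urethane arrays 0.15 ± 0.18 (SD, n = 11), which differ by 0.43 in log2. It was 0.52 on the low-numbered and 0.38 on the high-numbered arrays. The controls spanned -0.55 to 0.08 and the urethane arrays -0.21 to 0.38, with 7 of 11 urethane arrays above all controls, so the groups overlapped. All 5 low-numbered urethane values lay above both controls of their range. The ER mean was higher by 0.22 and the heat shock mean differed by -0.30 on the low-numbered arrays, and on the high-numbered arrays the values were -0.01 and -0.40. Without Hspa1a and Hspa1b the heat shock mean differed by 0.01 on the low-numbered arrays, -0.24 on the high-numbered arrays and -0.14 over all arrays, against -0.35 with them. Without Hspa1a and Hspa1b, left out after their values were seen, the difference was 0.22, with 0.21 and 0.23 in the 2 ranges and 10 of 11 urethane arrays above all controls. No test was made, because the genes of a class are not replicates.

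**Figure D5:**
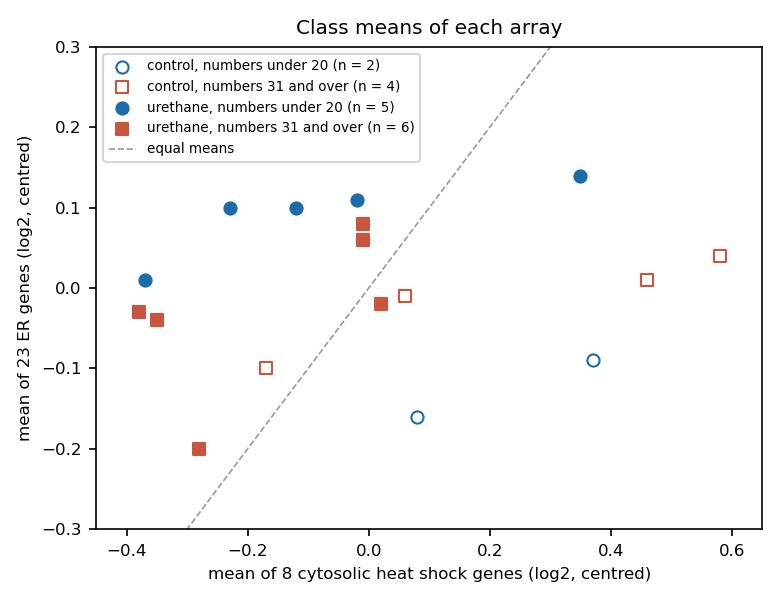
Mean of the 23 ER genes (y axis) against the mean of the 8 cytosolic heat shock genes (x axis) on each array, both in log2 after centring each gene. Open points are controls and filled points urethane arrays, in blue circles for the low-numbered and red squares for the high-numbered range; the controls lie mainly to the right, and the filled blue points above the open blue ones.

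The ER genes with an ERSE or ERSE-II were set beside those without. Of the 9 with a match 4 rose on the low-numbered arrays (Hspa5, Dnajc3, Creld2 and Dnajb11), with a median difference of 0.42 and a range from -0.17 to 0.85. Of all genes 4.92% rose there, and their median was -0.04. Of the 11 other ER genes with a window 3 rose (Sdf2l1, Pdia3 and Pdia4), with a median of -0.06 and a range from -1.08 to 1.12. The high-numbered medians were -0.02 and -0.07, beside 0.02 for all genes. The 2 sets differ in role: 5 of those 11 are sensors and factors, with a median of -0.20, and none of the 9 with a match are. The 6 other folding and degradation genes without a match had a median of 0.29, and 3 of them rose. Hsp90b1, which has 2 ERSE matches, gave -0.17 and 0.35 from its 2 probe sets on the low-numbered arrays, neither past the threshold, and Sdf2l1, which has none in its window, had the largest rise. Manf, Atf6 and Hyou1 had no window. A match describes letters and not a bound site.

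Cell type markers moved with the groups, and their part in these results was not tested. Where the ER genes rose, on the low-numbered arrays, 5 of 8 T cell markers and C1qa, C1qb and C1qc of the 7 monocyte and interstitial macrophage markers were higher and 3 of 9 airway secretory markers lower. Of the alveolar macrophage markers Car4 (1.10) and Fabp4 (0.76) were also higher there and Cidec (-1.09) lower, in log2 differences. The 7 ciliated cell markers summed to 2716 and 2820 in the controls and 1313 to 2087 after urethane, without overlap. Plasma cells are rich in ER chaperones: none of 9 plasma and B cell markers passed in limma on those arrays (1 had an unadjusted p under 0.05), and the summed signal of the 11 with a probe set was 1228 and 1465 in the controls and 1324 to 1809 after urethane, which overlap. On the high-numbered arrays, where those ER genes did not pass, the plasma and B cell sum was 1726 to 1874 in controls and 1993 to 2929 after urethane, without overlap, and Jchain passed as higher. Of the 8 T cell markers 6 passed as higher there too, and Cd2 as lower. T cell markers summed to 11145 and 11947 in the low-numbered controls and 11466 to 12845 after urethane. On the high-numbered arrays the sums were 8995 to 15124 and 8455 to 11849, so the groups overlapped in both ranges. Monocyte and interstitial macrophage markers summed to 7546 and 9536 in the low-numbered controls and 10984 to 14948 after urethane, without overlap. On the high-numbered arrays they summed to 10533 to 40924 in controls and 16050 to 23736 after urethane, which overlap. Their median difference was 0.50 on the low-numbered and -0.62 on the high-numbered arrays, where F13a1 passed as higher and Cx3cr1 as lower. Airway secretory markers summed to 9121 and 14755 in the low-numbered controls and to 3179 to 5092 after urethane, and to 12086 to 33685 and 5248 to 11386 on the high-numbered arrays, lower after urethane without overlap in both ranges. Neutrophil markers summed to 3371 and 3497 in the low-numbered controls and 4742 to 6599 after urethane, and to 4112 to 9786 and 10584 to 72030 on the high-numbered arrays, the highest on urethane 34. The markers did not move together. Of the 8 tested, S100a8 and S100a9 passed as higher on the low-numbered arrays, where the median difference was -0.03. On the high-numbered arrays S100a8 passed as higher and Csf3r as lower, with a median of 0.71. With the 3'/5' signal ratios of Actb and Gapdh, a measure of RNA quality, as covariates over all arrays, Dnajc3 and Sdf2l1 passed in limma where none had.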

How the data were processed

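The deposited values were MAS5 signal intensity per probe set, made by the authors with MAS5 per the submitters' processing notes; every array had a trimmed mean signal of 500 after leaving out 2% at each end. Other steps are not given in the sources used here. Of 45101 probe sets, 64 were controls, 34945 had 1 gene symbol, 932 several and 9160 none. Signals were taken as log2(signal + 17.1), 17.1 being their 20th percentile. Probe sets above the 40th percentile on at least 6 arrays were kept (29550), and a gene was read from its kept probe set of highest mean (13390 genes).

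Differences between urethane and control were fitted in R 4.3.3 by limma 3.58.1 (two-sided tests from lmFit and eBayes, the trend option on); p-values were adjusted over all genes by Benjamini-Hochberg, with a threshold of 0.05: over all 17 arrays, with the number range as a block, within each range, and as the interaction. The 33 genes were also read from a fit over all kept probe sets. Sums and figures used Python 3.11.15, pandas 2.3.3 and matplotlib 3.10.9. Tested on simulated data of 13390 genes, the fit over all arrays recovered 42% of 1.5-fold and 60% of 2-fold changes, with 1.92% of its calls unchanged genes; the fits within ranges were not simulated. The number of arrays limits the precision, above all the 2 low-numbered controls; where 1 of them was left out, the other was assumed to vary like the urethane arrays.

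Single values were given for genes past the threshold in any fit, the 3 ER and 3 heat shock genes of largest pooled difference, and Hspa5, Xbp1, Atf4, Ddit3, Hspa1a, Hspa1b and Hsp90aa1; of each other list, for up to 4 genes past the threshold over all arrays or, if none, with the block. Hsp90b1, Dnajb9 and other genes outside this rule were named after their values were seen. The genes and lists were chosen with earlier results of these data known. Alternatives were the scaling, pseudocount, filter, choice of probe set, variance trend, array weights, blocks, RNA quality covariates, a 1.5-fold minimum and leaving out each array. Leaving out Hspa1a and Hspa1b, and the settings for the PERK and ATF4 list, were added after seeing the data.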

Additional observations from a re-analysis of the deposited data

Results flagged for a closer look

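Among 132 groups of arrays, 10 held a single array far from the rest; chance alone gives about 1 in 20 groups. Among the ER genes, Ddit3 was at 8.31 on urethane 33 (the other 5 high-numbered urethane arrays at 9.13 to 9.37), Dnajb11 at 11.32 on urethane 9 (the other low-numbered urethane arrays at 11.79 to 11.94), Sdf2l1 at 12.40 on urethane 8 (others 11.88 to 12.03) and Sel1l at 11.43 on control 6_13 (the other controls 11.63 to 11.67). Among the cytosolic genes, Hsp90aa1 was at 12.14 on urethane 9 (others 12.44 to 12.52), Hspa8 at 14.45 on urethane 33 (others 14.75 to 14.84), Hspa1b at 5.03 on urethane 31 (others 6.93 to 8.02), Dnaja1 at 11.78 on control 35 (the other controls 12.28 to 12.54) and Hspb1 at 7.77 on urethane 3 (others 6.40 to 6.75). The mitochondrial Hspe1 was at 12.34 on urethane 3 (others 12.55 to 12.59). The urethane difference of Hsp90aa1 itself differed between the number ranges in limma, by -0.78 in log2 (high-numbered minus low-numbered, adjusted p = 0.0480), for 1 of its 4 probe sets and in 4 of 17 fits that left out an array.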

How the results depend on the processing

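Over all arrays, 421 genes passed, and 248 did with median centring, 218 with the probe set of largest interquartile range, 250 without the variance trend, 753 with the number range as a random block and 1038 with it as a block. Of the 33 genes 0 passed, against 1 with quantile normalization (Hspa5), 1 with the mean over probe sets (Hspa1b), 2 with array weights, 3 with the block and 2 with RNA quality covariates. With the block, 1038 genes passed, against 517 with median centring, 649 with the interquartile choice and 519 at 1.5-fold; of the 33 genes 3 passed, against 5, 0, 1, 0, 5 and 0 with quantile normalization, median centring, the interquartile choice, no trend, RNA quality covariates and 1.5-fold. On the low-numbered arrays 974 genes passed, against 2541 with median centring, 549 with the interquartile choice, 60 without the trend, 382 with array weights and 612 at 1.5-fold; of the 33 genes 10 passed, against 16 with median centring, 0 without the trend and 6 with array weights. On the high-numbered arrays 636 genes passed, against 309, 414, 216 and 1393 with median centring, the interquartile choice, no trend and array weights; of the 33 genes 2 passed, against 1 without the filter, 5 with array weights, and 0 with median centring, the mean over probe sets, the interquartile choice, no trend or 1.5-fold. The interaction passed for 11 genes, against 27 with median centring, 2 with the 11-array filter, 2 with the mean over probe sets, 3 without the trend, 323 with array weights and 0 with quantile normalization, a pseudocount of 64 or the interquartile choice. Of the 33 genes 1 passed it, against 6 with array weights and 0 with quantile normalization, median centring, a pseudocount of 64, no filter, the 11-array filter, the mean over probe sets, the interquartile choice or no trend. Of the PERK and ATF4 list 7 passed, against 2 with the interquartile choice, 2 without the trend and 3 with RNA quality covariates. The ER minus heat shock difference of 0.43 was 0.22 without Hspa1a and Hspa1b. The split of calls, higher and lower, went from 268 and 153 to 203 and 45 over all arrays with median centring, from 577 and 461 to 357 and 160 with the block, and from 659 and 315 to 2348 and 193 on the low-numbered arrays.

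Leaving out each array in turn gave 218 to 634 genes over all arrays and 0 to 1 of the 33, 712 to 1199 and 0 to 4 with the block, 216 to 1403 and 3 to 12 on the low-numbered arrays, 220 to 959 and 0 to 4 on the high-numbered arrays, and 0 to 663 and 0 to 9 for the interaction, the 9 without control 37. The PERK and ATF4 count ran from 2 to 7 and the ER minus heat shock difference from 0.38 to 0.50.

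Numbers 33, 35 and 36 occur in both groups, and same-numbered arrays deviated from their group means with correlations of -0.007, -0.158 and -0.171. Pairs of different numbers ran from -0.320 to 0.298. So few pairs cannot decide whether same-numbered arrays share more than a number. With the replicate block 3024 genes, 8 of the 33 and 12 of the PERK and ATF4 list passed. Such a block takes the urethane difference from those 3 high-numbered pairs alone, so no low-numbered array enters it. In those pairs the differences of Hspa5 (-0.22), Dnajc3 (-0.29), Dnajb11 (-0.49), Creld2 (-0.11), Pdia3 (-0.23), Hsph1 (-0.38) and Trib3 (0.07) had the opposite sign to those over all arrays. The interquartile choice changed the sign of Atf4 on the high-numbered arrays (0.07), Hspa5 on the low-numbered arrays (-0.45), Hsp90aa1 over all arrays (0.32), on the high-numbered arrays (1.08) and in the interaction (1.91), and with the block Derl2 (-0.00) and Dnajb4 (-0.28). The mean over probe sets did so for Hsp90aa1 on the high-numbered arrays (0.11) and in the interaction (0.48), and RNA quality covariates for Dnajb1 over all arrays (0.09). The causes of the sign changes outside the replicate block were not tested.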
